A study of Mus musculus with 18 samples.

Results

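A group of 10 genes better known from other organs than from lymphocytes was followed through CD4+ T cells at rest, after activation, and after activation in the presence of inhibitors of the estrogen related receptor alpha (ERRα). They are Tg, Penk, Pros1, Afp, Crabp2, Akr1c18, Prss16, Lad1, Tacc2 and Myo6. The 10 genes had been picked from the 12393 genes with a single-gene probe set on the array because of a large effect of activation or of an inhibitor in these same data, with no numeric threshold given. The activation and inhibitor values below are therefore descriptions and carry no test for these 10 genes. The knockout against wild type comparisons did not themselves enter the choice and were tested. They share arrays with the activation comparisons that did, so these tests are not independent of the choice. All 10 genes were among the 6873 genes tested, those that reached log2 4 on at least 3 of the 18 arrays, but 6 of the 10 did so only through cultured cells.

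The genes encode proteins of unlike kinds. Tg, thyroglobulin, is the large precursor from which the thyroid makes its hormones. Penk, proenkephalin, is cut into opioid peptides in neurons and endocrine cells. Pros1, protein S, is an anticoagulant plasma protein and a ligand of the TAM receptor tyrosine kinases. Afp, alpha-fetoprotein, is the main serum protein of the fetal liver. Crabp2 carries retinoic acid inside cells and passes it to its nuclear receptor. Akr1c18 is a 20α-hydroxysteroid dehydrogenase that inactivates progesterone. Prss16 is the thymus-specific serine protease of cortical thymic epithelium. Lad1, ladinin, is a protein of the anchoring filaments beneath epithelia. Tacc2 is a coiled-coil protein of centrosomes and the mitotic spindle, and Myo6 is the myosin that walks towards the minus end of actin filaments. T cells that meet antigen and a costimulus enlarge, change their transcription widely and begin to divide, and ERRα, encoded by Esrra, is an orphan nuclear receptor known for its control of mitochondrial and metabolic genes.

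Negatively selected CD4+ T cells came from mice aged 6 to 8 weeks, and each of 6 groups had 3 arrays, described in the labels as independent biological replicates. The 3 groups that carried a treatment or mutation in culture were wild-type cells with 20 µM XCT790, an inverse agonist of ERRα, wild-type cells with 20 µM compound A, and ERRa-/- (ERRKO) cells stimulated through CD3 and CD28 for 12 h with 10 µg of antibody. The others were wild-type cells stimulated in the same way without inhibitor, resting ERRKO cells taken directly ex vivo, and resting wild-type cells. The labels of the 6 inhibitor arrays read "No stimulation", whereas the treatment protocol places both inhibitors in the stimulated culture. The mean signal of 10 activation markers, Il2 and Il2ra among them, was log2 11.1 to 11.2 on the XCT790 arrays, 11.1 to 11.2 on the compound A arrays, 11.4 to 11.6 on both sets of stimulated arrays, 7.34 to 7.91 on resting ERRKO arrays and 7.98 to 8.26 on resting wild-type arrays. The 6 T cell markers on the array averaged log2 11.4 to 12.3 per array in every group. The source mouse strain, the kind of knockout allele and any pooling of animals are not given in the sources used here.

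Signals are log2 values after the GCRMA method, which subtracts background by probe sequence, and log2 4 was used as the level under which a signal was treated as not measured. Values of different genes come from different probes and were not set against each other. In whole cultures, fewer cells of a type and less RNA per cell cannot be told apart. The 5′ probe set of the dap spike-in control read log2 7.21 to 8.07 on all inhibitor and ERRKO arrays and 3.73 to 6.03 on all untreated wild-type arrays. That split and the group cannot be told apart wherever inhibitor or knockout arrays are set against untreated wild-type arrays. The 5′ split does not separate the 2 groups when activation is read within a genotype, nor when the 2 inhibitors are compared. The 3′ dap probe set did separate these groups without overlap. It read 11.28 to 11.81 on resting and 10.58 to 10.86 on stimulated wild-type arrays. On resting and stimulated ERRKO arrays it read 11.42 to 11.68 and 10.75 to 10.98. With XCT790 it read 10.96 to 11.45, and with compound A 10.72 to 10.93. The middle dap probe set separated them as well, and its part in the values below was not tested. The knocked-out gene was checked first. Esrra read 4.33, 4.30 and 4.71 on stimulated ERRKO arrays, against 5.28, 5.47 and 5.36 on stimulated wild-type arrays, and 4.34, 4.65 and 4.65 on resting ERRKO arrays, against 5.51, 5.25 and 5.51 on resting wild-type arrays. It was 1.89-fold lower in stimulated knockout cells (adjusted p = 0.000331, limma with Benjamini-Hochberg adjustment) and 1.83-fold lower in resting knockout cells (adjusted p = 0.000216), with no overlap. Whether its probes lie within the deleted stretch is not given in the sources used here.

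Promoter sequences, 250 bases before to 50 bases after the start of the gene, were available from RefSeq on GRCm38.p6 for 6 of the 10 genes. Those of 5 genes are shown because these genes parted most clearly with the inhibitors: Pros1 and Myo6 were under log2 4 on all XCT790 arrays, Lad1 and Akr1c18 were high with both inhibitors, and Tacc2 was low with compound A. Capitals mark matches to the motifs searched, on either strand, and each sequence is written 5′ to 3′ on the strand of its gene. The windows lie at chr16:62854057-62854356 (plus strand) for Pros1, chr9:80164784-80165083 (plus) for Myo6, chr1:135818348-135818647 (plus) for Lad1, chr13:4150597-4150896 (minus) for Akr1c18 and chr7:130577188-130577487 (plus) for Tacc2.
Pros1: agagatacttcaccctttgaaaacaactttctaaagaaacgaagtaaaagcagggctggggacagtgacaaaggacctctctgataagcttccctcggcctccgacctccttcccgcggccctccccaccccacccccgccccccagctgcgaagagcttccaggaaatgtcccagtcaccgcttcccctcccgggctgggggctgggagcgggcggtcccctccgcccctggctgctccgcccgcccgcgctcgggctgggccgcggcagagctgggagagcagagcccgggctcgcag
Myo6: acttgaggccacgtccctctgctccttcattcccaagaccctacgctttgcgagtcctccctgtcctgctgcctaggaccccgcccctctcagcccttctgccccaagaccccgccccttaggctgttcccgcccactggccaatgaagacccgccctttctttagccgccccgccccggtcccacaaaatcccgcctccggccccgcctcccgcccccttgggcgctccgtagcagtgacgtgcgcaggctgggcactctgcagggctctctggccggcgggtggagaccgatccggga
Lad1: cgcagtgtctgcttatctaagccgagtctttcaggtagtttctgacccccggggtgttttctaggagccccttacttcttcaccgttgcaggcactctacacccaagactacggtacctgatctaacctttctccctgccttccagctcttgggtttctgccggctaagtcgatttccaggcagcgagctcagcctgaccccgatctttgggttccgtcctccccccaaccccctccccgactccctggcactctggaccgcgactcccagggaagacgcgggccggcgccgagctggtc
Akr1c18: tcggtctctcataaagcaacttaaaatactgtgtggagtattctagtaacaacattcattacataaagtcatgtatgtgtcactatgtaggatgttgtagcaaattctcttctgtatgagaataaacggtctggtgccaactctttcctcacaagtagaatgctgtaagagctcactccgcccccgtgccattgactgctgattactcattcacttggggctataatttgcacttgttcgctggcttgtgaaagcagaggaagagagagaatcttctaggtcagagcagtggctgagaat
Tacc2: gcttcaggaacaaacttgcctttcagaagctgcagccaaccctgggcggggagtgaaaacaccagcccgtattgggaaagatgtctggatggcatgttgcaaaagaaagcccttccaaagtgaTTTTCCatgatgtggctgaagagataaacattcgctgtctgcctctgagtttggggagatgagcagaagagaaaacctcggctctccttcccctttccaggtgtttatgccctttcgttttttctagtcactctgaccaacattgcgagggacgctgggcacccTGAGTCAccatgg
The motifs were AP-1 (TGANTCA), CRE (TGACGTCA), E-box (CACGTG), an ERR half-site (AAGGTCA), NFAT (GGAAAA), kappaB, a motif with several free positions that is given by name, and the TATA box (TATAAA), whose letters were added after the genes' values had been seen. In this Tacc2 window the AP-1 letters began 37 bases after the start, and the NFAT letters, on the opposite strand, 127 bases before it. Of all 32851 promoters of the same length, 7.81% held the AP-1 letters and 23.4% the NFAT letters. The ERR half-site stood in none of the 7 windows of the 6 genes and in 4.72% of all promoters. CRE, E-box and kappaB had no match in the 7 windows either, against 1.79%, 7.15% and 4.79% of all promoters. Tacc2 has a second window with no match, and which start the T cells used was not measured. The Afp window, not printed, held the NFAT letters 163 bases before the start and the TATA letters 7 bases before it. The TATA letters stood in 13.6% of all promoters. A match here describes letters and shows no binding.

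Activation was described first, since it is the change the 10 genes are named for. In wild-type cells 9 of the 10 genes had all 3 stimulated arrays above all 3 resting arrays, as did 41.3% of all tested genes. In ERRKO cells it was the same 9 genes, against 38.3% of tested genes. A difference of at least 8-fold, counted from log2 4, was reached by 6 genes in wild-type cells (1.05% of tested genes) and by 7 in ERRKO cells (1.16%), and since these values chose the genes, nothing is read from the counts. The 6 are Lad1, Tg, Crabp2, Pros1, Akr1c18 and Tacc2, and Prss16 joined them in ERRKO cells. "Switched on" fitted 6 genes, Lad1, Tg, Crabp2, Pros1, Akr1c18 and Prss16, which lay under log2 4 on all 6 resting arrays and above it on all 6 stimulated arrays without inhibitor. Tacc2, Myo6 and Penk already had signal at rest. The description did not hold for Afp, whose signal was as high at rest as after stimulation.

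**Figure D1:**
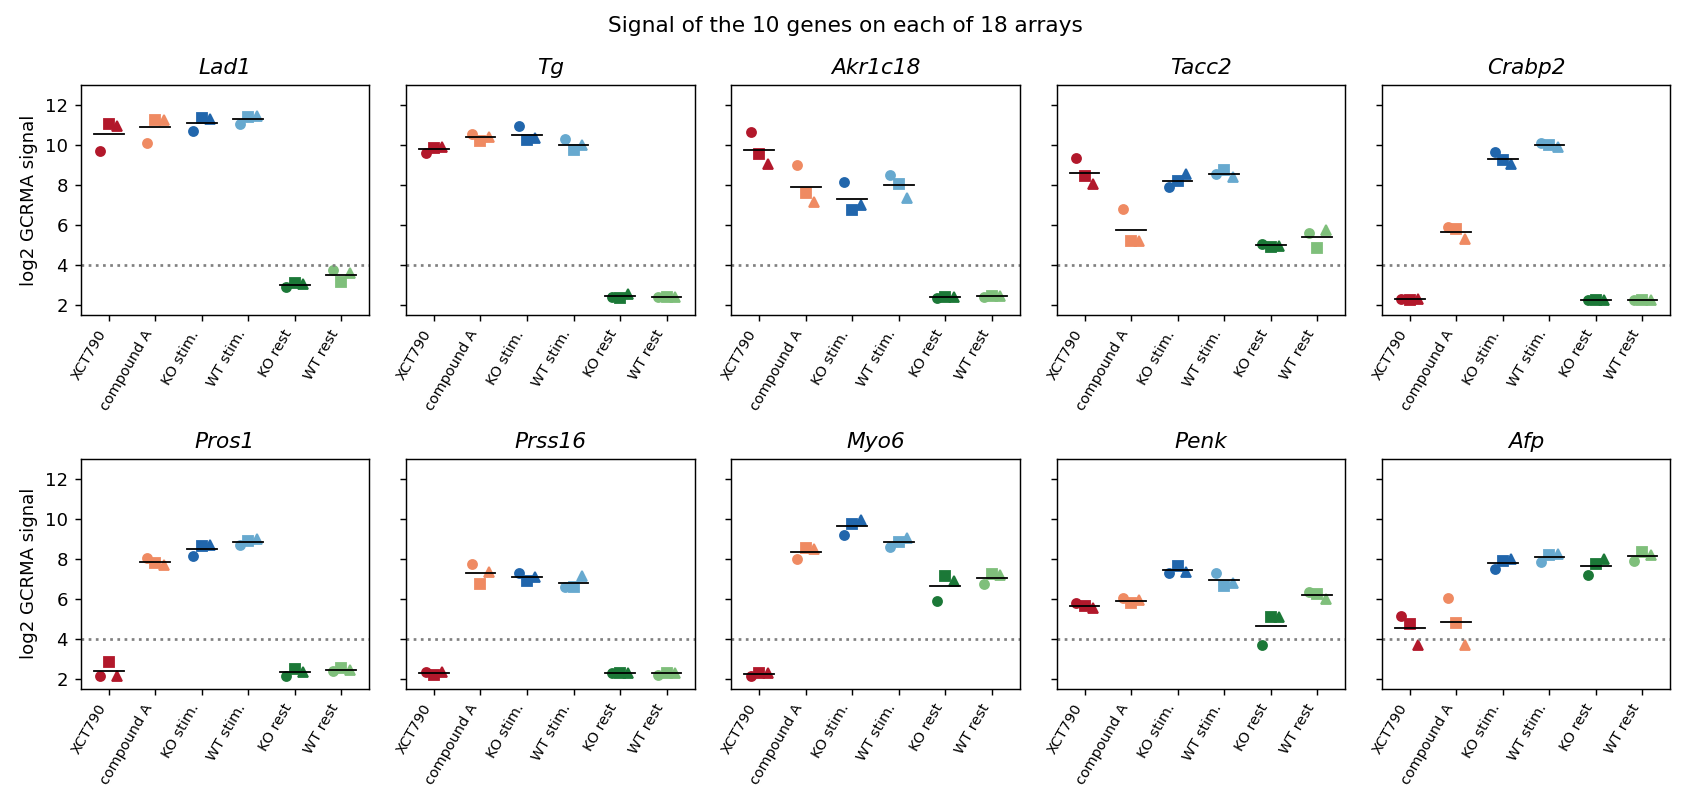
Log2 GCRMA signal of the 10 genes (vertical axis) on each of 18 arrays, grouped along the horizontal axis, with circles, squares and triangles for arrays numbered 1, 2 and 3, black lines for the mean of 3 arrays and a dotted line at log2 4. Of the 10 genes, 6 lie under the line at rest and above it after stimulation, Crabp2, Pros1, Prss16 and Myo6 lie under it with XCT790, and Afp is low with both inhibitors only.

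Among the secreted proteins, Tg read 10.93, 10.23 and 10.32 on stimulated ERRKO arrays and 10.29, 9.73 and 10.00 on stimulated wild-type arrays. At rest it read 2.39, 2.38 and 2.53 on ERRKO arrays and 2.39, 2.41 and 2.42 on wild-type arrays. Every stimulated array lay far above every resting array, and the difference in wild-type cells, 7.60 ± 0.171 (SE, log2), corresponds to at least 64.2-fold when counted from log2 4. Pros1 read 8.14, 8.65 and 8.67 on stimulated ERRKO arrays, 8.68, 8.87 and 8.99 on stimulated wild-type arrays, 2.15, 2.48 and 2.32 on resting ERRKO arrays and 2.39, 2.56 and 2.42 on resting wild-type arrays. Stimulated and resting arrays again did not overlap, with a difference of at least 28.7-fold in wild-type and at least 22.4-fold in ERRKO cells. Penk, in contrast, moved little in wild-type cells, with 7.30, 6.65 and 6.81 on stimulated arrays against 6.35, 6.22 and 5.98 on resting arrays, a difference of 1.66-fold. In ERRKO cells it read 7.27, 7.66 and 7.34 stimulated against 3.71, 5.11 and 5.07 resting, a difference of 6.49-fold. The wider step in ERRKO cells goes with the low resting ERRKO arrays, which are tested below. Afp read 7.50, 7.88 and 8.01 on stimulated ERRKO arrays against 7.18, 7.76 and 8.00 on resting ERRKO arrays, and 7.82, 8.17 and 8.24 on stimulated wild-type arrays against 7.87, 8.31 and 8.21 on resting wild-type arrays. The arrays overlapped in both genotypes.

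Among the carriers and enzymes, Crabp2 read 9.67, 9.25 and 9.04 on stimulated ERRKO arrays and 10.10, 9.98 and 9.88 on stimulated wild-type arrays, while all 6 resting arrays lay at 2.24 to 2.26. The difference was at least 63.4-fold in wild-type and at least 39.9-fold in ERRKO cells. Akr1c18 read 8.15, 6.76 and 6.98 on stimulated ERRKO arrays and 8.52, 8.07 and 7.34 on stimulated wild-type arrays, against 2.37 to 2.40 on resting ERRKO arrays and 2.42 to 2.44 on resting wild-type arrays. Its stimulated arrays were spread widely (SD 0.75 and 0.59 log2), yet all lay far above rest, by at least 9.82-fold in ERRKO and at least 15.8-fold in wild-type cells. Prss16 read 7.31, 6.91 and 7.09 on stimulated ERRKO arrays, 6.60, 6.61 and 7.15 on stimulated wild-type arrays, and 2.21 to 2.31 on all 6 resting arrays. That is at least 8.60-fold in ERRKO and at least 6.90-fold in wild-type cells.

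Among the structural proteins and motors, Lad1 read 10.68, 11.36 and 11.28 on stimulated ERRKO arrays and 11.04, 11.42 and 11.46 on stimulated wild-type arrays, against 2.90, 3.09 and 3.05 on resting ERRKO arrays and 3.76, 3.17 and 3.59 on resting wild-type arrays. The difference was at least 138-fold in ERRKO and at least 158-fold in wild-type cells. Tacc2 read 7.91, 8.20 and 8.53 on stimulated ERRKO arrays against 5.04, 4.92 and 4.97 on resting ERRKO arrays, and 8.54, 8.74 and 8.40 on stimulated wild-type arrays against 5.62, 4.86 and 5.75 on resting wild-type arrays. It had signal at rest on all 6 arrays, and the difference was 9.41-fold in ERRKO and 8.86-fold in wild-type cells. Myo6 read 9.20, 9.75 and 9.92 on stimulated ERRKO arrays against 5.90, 7.16 and 6.88 on resting ERRKO arrays, and 8.61, 8.86 and 9.01 on stimulated wild-type arrays against 6.75, 7.23 and 7.19 on resting wild-type arrays. The difference was 7.87-fold in ERRKO and 3.41-fold in wild-type cells, and ERRKO resting array 1 was the lowest of the 6 resting arrays.

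With the inhibitors the 10 genes parted. Against stimulated wild-type cells, XCT790 cells had 4 genes at least 8-fold lower from log2 4, Crabp2, Myo6, Pros1 and Afp, a size of decrease found in 0.495% of tested genes. Compound A cells had 2, Crabp2 and Afp (0.0582% of tested genes). Arrays did not overlap and were lower for 7 of the 10 genes with XCT790 (42.9% of tested genes) and for 6 with compound A (33.3%), and higher only for Akr1c18 with XCT790 (32.8%). These comparisons chose the genes too, and nothing is read from the counts.

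Crabp2 was low with both compounds. It read 2.31, 2.27 and 2.31 with XCT790 and 5.90, 5.79 and 5.30 with compound A, against 10.10, 9.98 and 9.88 in stimulated cells without inhibitor. It was under log2 4 with XCT790, at least 63.4-fold lower, and at an intermediate signal with compound A, 20.0-fold lower.

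Pros1 and Prss16 separated the 2 compounds. Pros1 read 2.15, 2.84 and 2.15 with XCT790 and 8.06, 7.81 and 7.67 with compound A, against 8.68, 8.87 and 8.99 without inhibitor. It was at least 28.7-fold lower with XCT790 and 2.00-fold lower with compound A. Prss16 read 2.33, 2.21 and 2.33 with XCT790 and 7.75, 6.71 and 7.36 with compound A, against 6.60, 6.61 and 7.15 without inhibitor. All XCT790 arrays lay where resting arrays lay, at least 6.90-fold lower than stimulated cells, while the compound A arrays overlapped stimulated cells. Between the compounds Pros1 was at least 14.4-fold and Prss16 at least 9.67-fold lower with XCT790.

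Myo6 lay under log2 4 with XCT790 although resting cells had signal. It read 2.15, 2.29 and 2.29 with XCT790 and 7.99, 8.54 and 8.51 with compound A, against 8.61, 8.86 and 9.01 in stimulated and 6.75, 7.23 and 7.19 in resting wild-type cells. XCT790 cells were at least 28.4-fold below stimulated and at least 8.32-fold below resting wild-type cells. Compound A cells lay 1.40-fold below stimulated and 2.44-fold above resting wild-type cells. The other 2 Myo6 probe sets averaged under log2 4 both with XCT790 and in stimulated wild-type cells, and no difference is read from them. With the mean of the 3 probe sets the XCT790 difference was -2.64 in place of -6.58.

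Tacc2 went the other way round. It read 9.36, 8.45 and 8.04 with XCT790 and 6.78, 5.22 and 5.22 with compound A, against 8.54, 8.74 and 8.40 without inhibitor. XCT790 arrays overlapped stimulated arrays, while compound A arrays were 7.06-fold lower and overlapped no stimulated array. Resting wild-type arrays, at 5.62, 4.86 and 5.75, overlapped those of compound A. Between the compounds Tacc2 was 7.35-fold higher with XCT790.

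Akr1c18 was the only gene of the 10 higher with an inhibitor on all arrays. It read 10.63, 9.54 and 9.06 with XCT790 and 8.97, 7.60 and 7.13 with compound A, against 8.52, 8.07 and 7.34 without inhibitor. It was 3.40-fold higher with XCT790 than in stimulated cells and 3.59-fold higher than with compound A, whose arrays overlapped stimulated arrays. Compared with resting wild-type cells it was at least 53.6-fold higher with XCT790.

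Lad1 and Tg stayed high with both compounds. Lad1 read 9.68, 11.02 and 10.95 with XCT790 and 10.10, 11.27 and 11.25 with compound A, against 11.04, 11.42 and 11.46 without inhibitor. It was 1.69-fold lower with XCT790 on average with no overlap, and overlapped stimulated cells with compound A. Tg read 9.59, 9.85 and 9.89 with XCT790 and 10.57, 10.20 and 10.40 with compound A, against 10.29, 9.73 and 10.00 without inhibitor, and overlapped stimulated cells in both cases. Against resting wild-type cells Tg was at least 54.8-fold higher with XCT790 and at least 83.8-fold higher with compound A.

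Penk and Afp were lower with both compounds. Penk read 5.80, 5.62 and 5.52 with XCT790 and 6.05, 5.76 and 5.92 with compound A, against 7.30, 6.65 and 6.81 without inhibitor, which is 2.41-fold and 2.01-fold lower. Afp read 5.14, 4.73 and 3.69 with XCT790 and 6.05, 4.81 and 3.69 with compound A, against 7.82, 8.17 and 8.24 in stimulated and 7.87, 8.31 and 8.21 in resting wild-type cells. It was 11.0-fold lower with XCT790 and 8.70-fold lower with compound A than in stimulated cells, and 11.4-fold and 9.05-fold lower than in resting wild-type cells, counting the array of each compound at 3.69 as log2 4. Of the 4 other Afp probe sets, those with signal were lower as well, by at least 3.52-fold and at least 2.15-fold with XCT790, and by 3.25-fold, counting arrays under log2 4 as log2 4, and at least 2.15-fold with compound A. The other two lay at 2.09 to 2.16 on all 18 arrays.

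**Figure D2:**
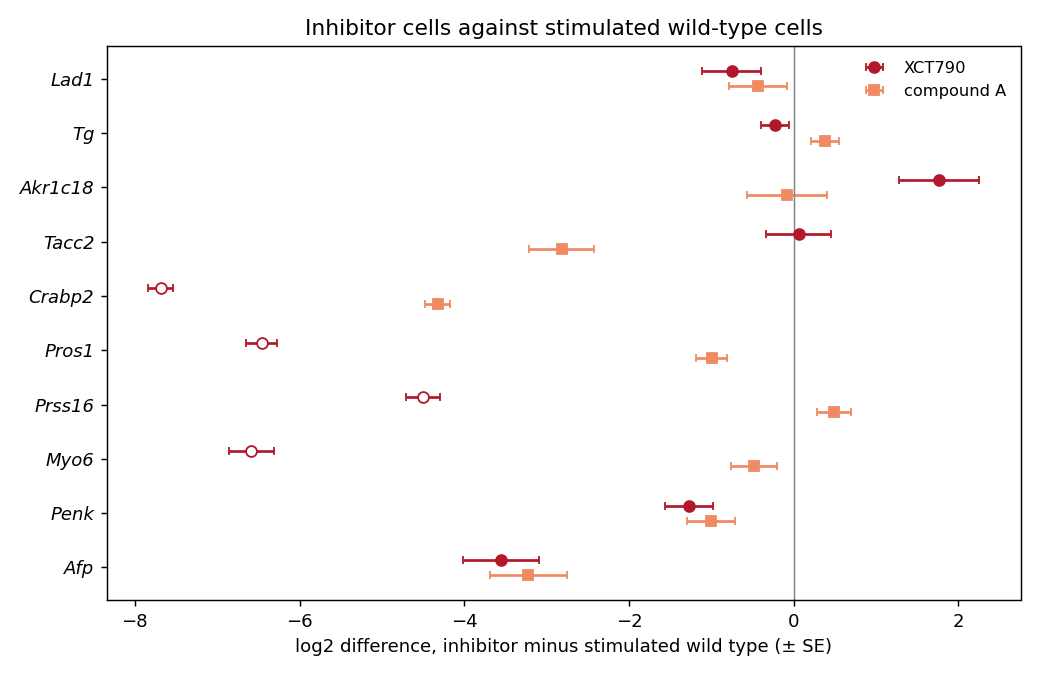
Log2 difference of inhibitor arrays minus stimulated wild-type arrays (horizontal axis, ± SE of the fit over 18 arrays, n = 3 per group) for the 10 genes (vertical axis), with circles for XCT790 and squares for compound A, open where all 3 inhibitor arrays lay under log2 4. XCT790 alone has open symbols, for Crabp2, Pros1, Prss16 and Myo6, compound A alone is far from 0 for Tacc2, and both are far from 0 for Crabp2 and Afp.

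Between the compounds, 5 genes had all XCT790 arrays below all compound A arrays (34.1% of tested genes), namely Myo6, Pros1, Prss16, Crabp2 and Tg, and 2 had them above (29.4%), Tacc2 and Akr1c18. The remaining genes, Lad1, Afp and Penk, overlapped, with log2 differences of -0.32 ± 0.354, -0.33 ± 0.466 and -0.27 ± 0.288 (SE). The activation markers were also compared with stimulated wild-type cells. Of the 10, 2 passed as higher and 2 as lower with XCT790 (29.1% and 36.9% of tested genes). With compound A, 0 passed as higher and 4 as lower (14.5% and 18.7% of tested genes). Ifng, the gene of the cytokine interferon gamma, averaged log2 6.43 with XCT790 and 9.89 with compound A, against 11.55 in stimulated and 7.72 in resting wild-type cells. It was 34.8-fold lower with XCT790 (adjusted p = 1.77e-08, limma) and 3.15-fold lower with compound A (adjusted p = 0.00207) than in stimulated cells, and its part in the values of the 10 genes was not tested.

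The knockout comparisons were tested. Of the 10 genes, 6 lay under log2 4 on all resting arrays and could show no difference at rest, and 1 passed there (19% of tested genes passed), from which nothing is read as a share. Penk read 3.71, 5.11 and 5.07 on ERRKO arrays and 6.35, 6.22 and 5.98 on wild-type arrays, with no overlap. It was 2.75-fold lower in ERRKO cells, a log2 difference of -1.55 ± 0.288 (SE, 95% interval -2.17 to -0.94, adjusted p = 0.00296, limma with Benjamini-Hochberg adjustment over 6873 genes), and lower on 3 of 3 arrays. It stood in place 11 among the decreases of all tested genes, and 12.3% of tested genes passed as lower. The resting arrays also served the activation comparisons on which the genes were picked. There Penk was 6.49-fold higher after stimulation in ERRKO cells and 1.66-fold higher in wild-type cells. The call was lost when the fit used the resting arrays alone (adjusted p = 0.0921), and the range over 15 alternatives was 0.000747 to 0.0921. Leaving out a replicate gave log2 differences of -1.79 to -1.10. ERRKO array 1, at 3.71, lay under log2 4, and the 2.75-fold counts it as log2 4. A further 3 genes, Lad1, Crabp2 and Akr1c18, also had lower ERRKO arrays without overlap, as 27.9% of tested genes did, but all their resting arrays lay under log2 4. The median difference of all tested genes was -0.11, so Penk lay well below it.

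Cell type markers also moved between the resting groups. All 5 tested erythroid markers and 5 of 7 tested neutrophil markers were higher in resting ERRKO cells, and the erythroid list averaged log2 7.49 to 9.43 on ERRKO arrays, against 3.30 to 5.84 on wild-type arrays. The neutrophil list averaged 6.95 to 9.33 on ERRKO arrays, against 4.09 to 5.92 on wild-type arrays. Macrophage markers averaged 7.86 to 9.61 on ERRKO arrays, against 7.50 to 8.45 on wild-type arrays, and 1 of 10 tested passed as higher. None of 6 T cell markers passed, with means of 11.7 to 12.3 on ERRKO arrays, against 12.3 on each wild-type array. Of 6 regulatory T cell markers 2 passed as lower, Foxp3 with a log2 difference of -0.90 (adjusted p = 0.041, limma) and Il2ra with -0.82 (adjusted p = 0.025). Of 5 tested B cell markers 2 passed as lower, with list means of 6.29 to 6.37 on ERRKO arrays, against 6.66 to 7.68 on wild-type arrays, and a median log2 difference of -0.87. Of the 10 activation markers 3 passed as lower, Il2ra again among them, with a median of -0.46. The part of these markers in the Penk difference was not tested. In all 4 cultured groups the macrophage and erythroid lists averaged log2 2.26 to 2.69. The neutrophil list averaged 2.75 to 5.61 on stimulated ERRKO arrays, against 2.22 to 2.58 on stimulated wild-type arrays, with none of 7 tested markers past the test, and its part in the results after stimulation was not tested.

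After stimulation 1 of the 10 genes passed as well (2.18% of tested genes passed). Crabp2 read 9.67, 9.25 and 9.04 on ERRKO arrays and 10.10, 9.98 and 9.88 on wild-type arrays, with no overlap. It was 1.59-fold lower in ERRKO cells, a log2 difference of -0.67 ± 0.148 (SE, 95% interval -0.98 to -0.35, adjusted p = 0.0277, limma), and 0.597% of tested genes passed as lower. Only 7 of 15 alternatives kept the call, with adjusted p from 0.00483 to 0.115, and it was lost on leaving out any of the 3 wild-type arrays or ERRKO array 2 or 3. These arrays are also those of the activation comparison on which the genes were picked. With the inhibitors Crabp2 had been at least 63.4-fold (XCT790) and 20.0-fold (compound A) lower than in the same stimulated wild-type arrays.

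Myo6 did not pass but had all stimulated ERRKO arrays above all wild-type arrays, as did 9.75% of tested genes, with a log2 difference of 0.80 ± 0.276 (SE, adjusted p = 0.175, limma). With the array number as a block the same difference passed (adjusted p = 0.0191), and with arrays numbered 2 and 3 alone the difference was 0.90 (adjusted p = 0.00147). Pros1 had all stimulated ERRKO arrays below all wild-type arrays, as did 23% of tested genes, with a log2 difference of -0.36 and a 95% interval of -0.76 to 0.04 (adjusted p = 0.382). Tg differed by 0.49, with an interval of 0.12 to 0.85 before adjustment (adjusted p = 0.177). For the other 6 genes the intervals included 0, the widest being -1.72 to 0.35 for Akr1c18, and a change within such an interval is not shown to be absent. The step from rest to stimulation was larger in ERRKO than in wild-type cells by 2.06 ± 0.407 log2 units for Penk and by 1.21 ± 0.390 for Myo6, and smaller for Crabp2, at -0.66 ± 0.209 (SE), given without a test because both steps entered the choice of genes.

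**Figure D3:**
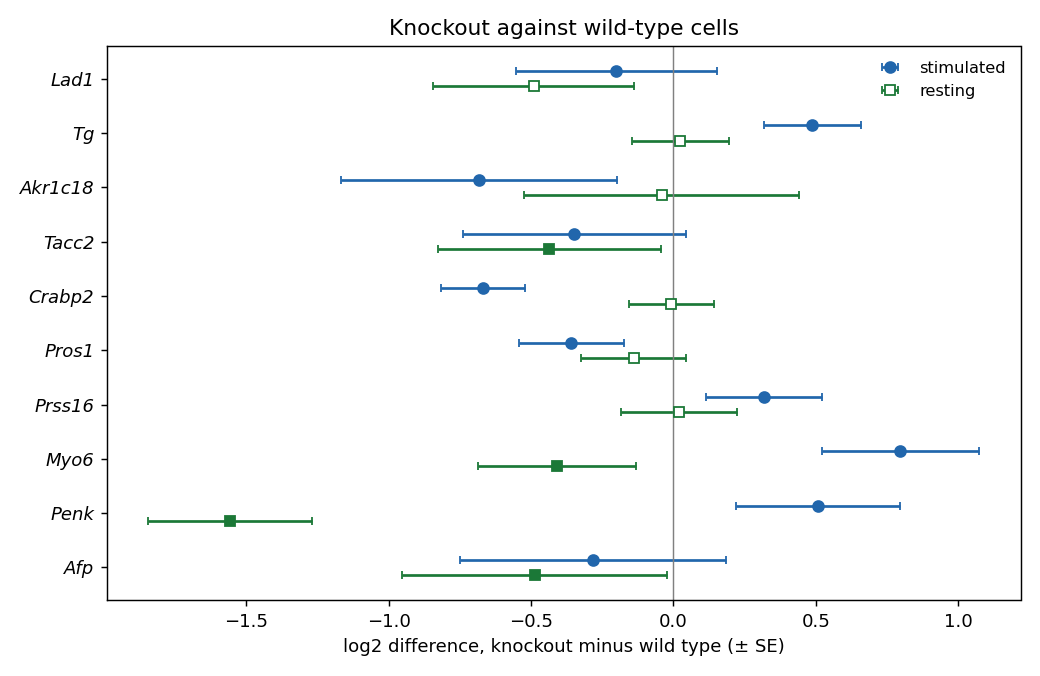
Log2 difference of ERRKO minus wild-type arrays (horizontal axis, ± SE of the fit over 18 arrays, n = 3 per group) for the 10 genes (vertical axis), with circles for stimulated and squares for resting cells, open where all arrays of both groups lay under log2 4. Penk at rest (-1.55) and Crabp2 after stimulation (-0.67) are the differences that passed the test.

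What else of each gene's usual setting appeared in these cells was read from 10 lists, 175 genes tied to the 10 genes by tissue or function. Of their 152 genes on the array, 101 (66.4%) lay under log2 4 on all 18 arrays, against 42.2% of all 12393 genes, and 45 were tested. In stimulated against resting wild-type cells 15 of the 45 rose (37% of tested genes rose) and 23 fell (38.4%), with a median log2 difference of -0.32, beside -0.01 over all tested genes. None reached 8-fold higher, a size that 6 of the 10 genes reached by choice. Against stimulated wild-type cells, 9 rose and 15 fell with XCT790 (29.1% and 36.9% of tested genes), and 3 rose and 6 fell with compound A (14.5% and 18.7%). Between stimulated ERRKO and wild-type cells none of the 45 passed, and between resting ERRKO and wild-type cells 5 rose and 5 fell (6.74% and 12.3% of tested genes).

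Beside Tg, 8 of 9 thyroid genes on the array lay under log2 4 throughout, including the receptor for thyrotropin (Tshr), the iodide transporter (Slc5a5) and the thyroid transcription factors Pax8 and Nkx2-1. The thyroid hormone receptor Thra was tested and fell after activation (log2 difference -1.18, adjusted p = 5.91e-05, limma). Beside Penk, 16 of 17 opioid and neuropeptide genes were not tested, and Ogfr, an opioid growth factor receptor, averaged 10.2 in stimulated and 9.96 in resting wild-type cells (difference 0.25, adjusted p = 0.0215). Beside Afp, albumin (Alb) and 14 other liver and plasma protein genes of 16 were not tested, and Zbtb20, a repressor of Afp in mouse liver, fell by 2.84 log2 units after activation (adjusted p = 1.89e-07) without a passing change with either inhibitor.

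Beside Pros1, the TAM receptors Axl and Mertk were at least 8.45-fold and at least 7.28-fold lower in stimulated than in resting wild-type cells (adjusted p = 1.22e-05 and 1.02e-07, limma), as macrophage markers were, all 10 tested of which fell. Tfpi, an inhibitor of the tissue factor pathway, rose by 1.30 (adjusted p = 0.000119) and Procr, the endothelial protein C receptor, was at least 1.75-fold higher after activation (adjusted p = 0.000562). With XCT790 Tfpi was lower than in stimulated cells by a log2 difference of -1.18 (adjusted p = 0.000397) and Procr by at least 1.75-fold (adjusted p = 0.00299), and neither passed with compound A.

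Beside Crabp2, the fatty acid carrier Fabp5, which also binds retinoic acid, averaged log2 12.2 in stimulated and 9.36 in resting wild-type cells, 7.38-fold higher (adjusted p = 1.7e-08, limma). It was 2.88-fold lower with XCT790 (adjusted p = 2.19e-05) and 1.77-fold lower with compound A (adjusted p = 0.00961) than in stimulated cells. The retinoic acid receptor Rarg fell after activation, 3.60-fold (adjusted p = 0.000135). Of the 7 tested genes of this list, Fabp5 was the 1 that rose after activation, while 4 fell, with a median log2 difference of -0.26. Beside Akr1c18, other family members were read from their own probes. Akr1c13 was 2.93-fold lower after activation (adjusted p = 5.98e-07) and Akr1c12 was 1.45-fold higher (adjusted p = 0.00019), and with XCT790 both fell relative to stimulated cells, by 0.69 (adjusted p = 0.00174) and 0.36 (adjusted p = 0.00507) on the log2 scale. Akr1a1, the other tested gene of this list, fell by 0.51 after activation (adjusted p = 4.14e-06, limma). With XCT790 it was higher than in stimulated cells, by 0.43 (adjusted p = 3.21e-05, limma). Beside Prss16, Cd83, an activation antigen also expressed in thymic epithelium, rose by 1.41 (adjusted p = 2.87e-06), and Ctsl, a lysosomal protease of thymic epithelium, fell by 0.75 (adjusted p = 0.000257). Foxn1, the thymic epithelial transcription factor, was not tested.

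Beside Lad1, keratins (Krt5, Krt14, Krt8 and Krt18) lay under log2 4 on all arrays. The adhesion molecule Epcam was 2.38-fold higher in stimulated than in resting wild-type cells (adjusted p = 0.0117, limma). It was 6.08-fold lower with XCT790 than in stimulated cells (adjusted p = 5.28e-05). Of the 3 tested genes of this list, Epcam was the 1 that rose after activation, while 2 fell, with a median log2 difference of -1.25. Beside Myo6, Myo10 was under log2 4 in stimulated cells and at least 3.82-fold higher with XCT790 (adjusted p = 7.61e-10). The Myo6 adaptors Tom1 and Tax1bp1 were 2.63-fold (adjusted p = 1.86e-08) and 1.95-fold (adjusted p = 9.23e-07) higher with XCT790 than in stimulated cells. The list as a whole did not move 1 way. Of its 9 tested genes, 4 passed as higher and 3 as lower with XCT790, with a median log2 difference of 0.15. Beside Tacc2, 5 of 9 tested spindle pole genes rose after activation, among them Tubg1, gamma-tubulin, by 1.17 (adjusted p = 4.58e-06), while the spindle motor Kif11 was 2.29-fold lower, counting arrays under log2 4 as log2 4 (adjusted p = 0.00809). With compound A, Tubg1 was the single spindle pole gene to pass, at 1.44-fold lower than in stimulated cells (adjusted p = 0.0143).

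**Figure D4:**
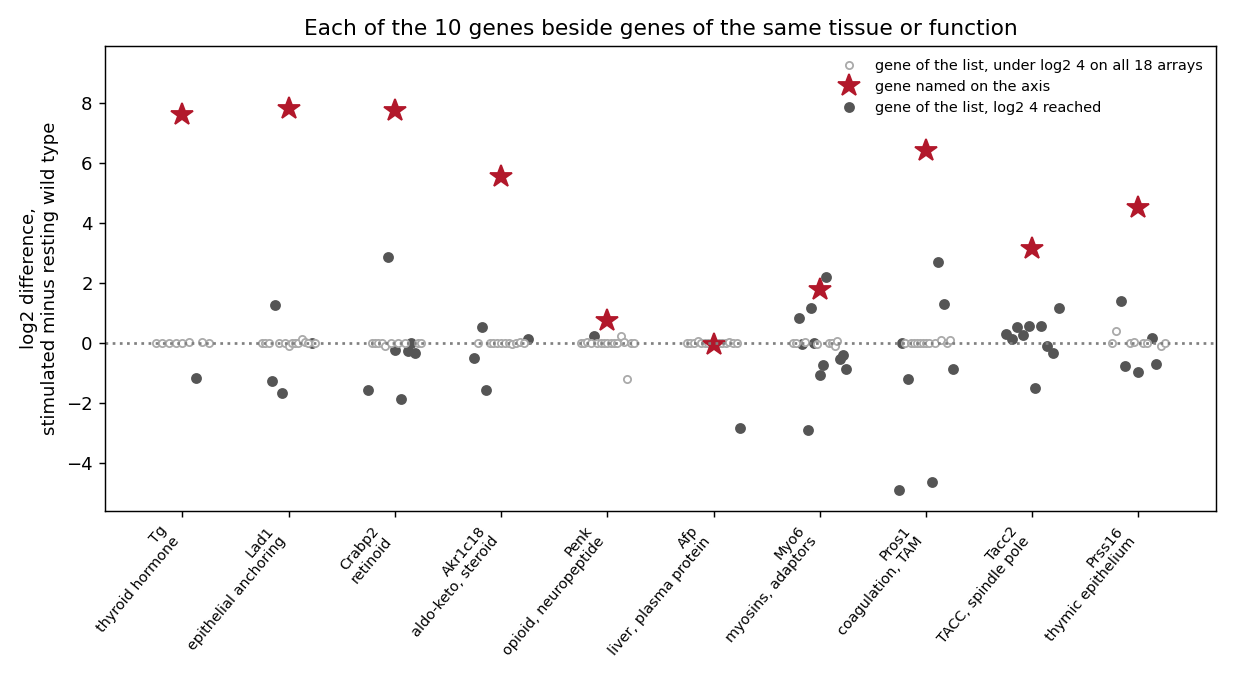
Log2 difference of stimulated minus resting wild-type means (vertical axis, n = 3 arrays each) for each of the 10 genes (stars) and for genes of its list on the array (circles, open where under log2 4 on all 18 arrays), by gene and list along the horizontal axis. Most circles are open and lie near 0, and the stars of Tg, Lad1, Crabp2, Akr1c18, Pros1, Tacc2 and Prss16 lie above all circles of their list.

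Neighbours on the chromosome were read in the same way. They were the protein-coding genes just before and after each gene in order of start position, and overlap between genes was not checked. Of these 20 genes, 14 were on the array and 5 were tested. Sla, which follows Tg in this order and encodes a Src-like adaptor of T cells, rose after activation by 0.71 (adjusted p = 0.000283, limma). Nsmce4a, before Tacc2, rose by 0.22 (adjusted p = 0.0246, limma). Phf20l1, before Tg in this order, fell by 1.57 (adjusted p = 3.03e-08, limma). Akr1c13 and Senp6, beside Akr1c18 and Myo6, fell as well. Alb and Afm, before and after Afp, averaged log2 2.19 to 2.25 in all groups.

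The profiles over the 6 group means, each centred on its own mean, showed which genes ran alike. Tg and Lad1 were nearest to each other, with a root-mean-square difference of 0.29 log2 units, and both had the chemokine gene Ccl4 (0.62 from Tg and 0.55 from Lad1) and Il2 (0.70 and 0.56) next. Pros1 and Prss16 lay 0.75 apart, with Lag3 and Cd40 next to Pros1 (0.81 and 0.90). Crabp2 had Cxcl9 (0.92) and Pros1 (1.06) nearest. Tacc2 had Tnfsf4 (0.39) and Egln3 (0.53), and Akr1c18 had Irf4 (0.59), Hk2 (0.60) and Crem (0.61). Penk had Mllt6 (0.32), Afp had Cep55 (0.59), and Myo6 had Zbp1 at a greater distance (1.00). These 6 means share arrays and a common activation step, and likeness of profile is given without a test. The means include signals under log2 4 as deposited, so the distances of genes that were off at rest or with XCT790 rest partly on levels that were not measured.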

How the data were processed

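RNA of 18 samples was measured on Affymetrix Mouse Genome 430A 2.0 arrays. The authors deposited a log2 signal for each probe set, made with GCRMA per the submitters' processing notes; the 18 arrays have identical quantiles. From 22690 probe sets, 20380 that name 1 gene were kept, and 64 controls, 1555 unnamed and 691 ambiguous ones dropped. Each of 12393 genes took its probe set of highest mean. Genes at log2 4 or more on at least 3 arrays (6873) entered limma 3.58.1 (R 4.3.3), which fitted a mean per group over all 18 arrays, two-sided, and adjusted by Benjamini-Hochberg over 6873 genes; an adjusted p under 0.05 passed. The fit was run on simulated data with the same spread for every gene and independent arrays, which does not check the p-values given here. Folds count signals under log2 4 as log2 4, and are "at least" where the lower group had no array above it. Arrays give no counts, and their number limits precision.

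Members and lists were chosen with earlier results of these data known. Genes named from the lists were those of smallest adjusted p or highest signal, and, as nearest profiles, up to 3 per gene; list genes under log2 4 and chromosomal neighbours were named to describe their list. The labels give each array a replicate number only and do not state a pairing. Between knockout and wild-type arrays, deviations of equal numbers correlated at 0.645, 0.406 and 0.254 at rest and 0.442, 0.384 and 0.148 after stimulation. Between compound A and stimulated wild-type arrays they correlated at 0.474, 0.398 and 0.287. Between stimulated and resting wild-type arrays the values were 0.132, -0.0106 and 0.0233. For stimulated and resting ERRKO arrays they were 0.336, 0.266 and 0.238. For XCT790 and stimulated wild-type arrays they were 0.253, 0.150 and 0.172. The main fit used no block for the array number. Alternatives varied the filter, the probe set rule, the shift of arrays, the floor, the block, the prior, the arrays fitted and each replicate. Figures were drawn with matplotlib 3.10.9 in Python 3.11.15.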

Additional observations from a re-analysis of the deposited data

Results flagged for a closer look

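Myo6 lay on opposite sides of resting wild-type cells with the 2 inhibitors. All 3 XCT790 arrays were below all resting wild-type arrays, with a log2 difference of -4.81 between the deposited values, which is at least 8.32-fold because the XCT790 arrays lay under log2 4, and all 3 compound A arrays were above them, with a difference of 1.29. Both differences use the same resting arrays, and the difference between the compounds was not tested, since inhibitor effects chose the gene. No outlier test was made within groups of 3, and the differences against resting cells were not refitted without single arrays. Between the compounds, leaving out a replicate gave log2 differences of -6.28 to -6.00 in the deposited values.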

How the results depend on the processing

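The knockout comparisons moved most with the processing. At rest, 1308 genes passed, and 176 when the fit held the compared groups alone, where none of the 10 genes passed (0, against 1). Leaving out a replicate gave 612 to 1487 genes and 1 of the 10 each time, the lowest counts being 612 and 737 without wild-type array 3 or 2 and 848 without ERRKO array 1. After stimulation, 150 genes passed, 253 with the mean of all probe sets and 432 with arrays numbered 2 and 3 alone, an alternative chosen after seeing the data. Leaving out a replicate gave 66 to 136 genes and 0 to 1 of the 10, with 66 and 77 genes without wild-type array 2 or 3, and 85 and 99 without ERRKO array 1 or 2. Of the 10 genes, 0 passed after stimulation with no filter, with a trended and robust prior or with the compared groups alone, 2 passed with array number as a replicate block, and 3 with arrays 2 and 3 alone (Penk at 0.77, adjusted p = 0.00901, beside Myo6 and Crabp2). Crabp2 had an adjusted p of 0.0562 with no filter, 0.0554 with the trended prior and 0.115 with the compared groups alone. The stimulated against resting ERRKO comparison gave 5042 genes, and 8197 with no filter. For the difference between genotypes in the step to stimulation, 62 genes passed, and 123 with the replicate block. The block changed no other call of the 10 genes. No difference of the 10 genes that passed the test changed sign, but 12 of 100 differences, of at most 0.33 in size, did so under at least 1 alternative. Leaving out a replicate gave -0.025 to 0.052 for Tg and -0.018 to 0.038 for Prss16 between resting ERRKO and wild-type cells, and -0.33 to 0.014 for Lad1 between the stimulated groups. It gave -0.71 to 0.11 for Lad1 and -0.91 to 0.27 for Afp between XCT790 and compound A. Tacc2 with XCT790 ran from -0.31 to 0.34 and Akr1c18 with compound A from -0.62 to 0.31 against stimulated cells. At rest, Crabp2 was 0.024 with arrays shifted to a common median, and Prss16 -0.012 with arrays 2 and 3 alone. The Lad1 difference between steps, 0.29, was -0.20 with the floor. The cause was not tested. Afp against stimulated cells, with the mean of 5 probe sets, was -1.87 with XCT790 and -1.78 with compound A, and Myo6 in stimulated against resting wild-type cells, with the mean of 3, was 0.98. Setting values under log2 4 to log2 4 shortened the differences of genes that lie there. Signals near background bound every fold given as "at least".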

Other observations

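Among the 4 cultured groups, some of the 10 genes ordered the arrays alike by the number in the labels. Akr1c18 was highest on array 1 in 4 of 4 groups, by 0.81 to 1.61 log2 units over the mean of arrays 2 and 3. Lad1 was lowest on array 1 in 4 of 4 groups, with differences of -1.31 to -0.40, and Myo6 likewise, with differences of -0.64 to -0.14. Aldh1a1, which makes retinoic acid and stands in the Crabp2 list, averaged log2 8.01 in resting ERRKO cells and 3.76 in resting wild-type cells (11.1-fold higher in ERRKO cells, counting arrays under log2 4 as log2 4, adjusted p = 0.000445, limma), and was under log2 4 in stimulated wild-type cells.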
